A study of Mus musculus with 8 samples.

Results

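The receptors through which estradiol acts, the estrogen-related receptors that resemble them, and their main coregulators were followed on 8 arrays of cultured mouse ovarian follicular cells. The 10 genes were chosen by name and matched through their Entrez gene IDs, and all 10 of them were among the 24232 genes with a value. They were the estrogen receptors Esr1 and Esr2, the estrogen-related receptors Esrra, Esrrb and Esrrg, the coactivators Ncoa1, Ncoa2 and Ncoa3, and the corepressors Nrip1 and Ncor1. The question of the experiment was how depletion of FOXL2, a forkhead transcription factor of granulosa cells, bears on the response of these cells to estradiol.

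The cells came from preantral follicles of 8-week-old female Swiss mice, each replicate being a pool of 5 animals. They had been cultured for 9 days and are described as mostly granulosa cells, which enclose the oocyte. In the last days the medium held charcoal-treated serum, no phenol red and no androstenedione. An siRNA pool, either the control or one against FOXL2, was combined with either vehicle or 100 nM 17β-estradiol (E2), which gave 4 groups of 2 arrays. All wells received 12 pmol of an siRNA pool together with a pDsRed plasmid, and E2 or vehicle for the 10 h before lysis. The labels place lysis 24 h into the culture that followed transfection, whereas the study's text places 24 h of siRNA before E2, so the total time after transfection is not settled here. Whole cultures were lysed, so fewer cells of a type and less RNA per cell cannot be told apart in any value given here. The duplicates of a group came from different animals and were grown apart, and nothing says what samples of different groups with the same replicate number share.

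ERα and ERβ, the products of Esr1 and Esr2, are nuclear receptors that bind E2 and then act on transcription at estrogen response elements in DNA. With hormone bound they recruit coactivators of the p160 family, encoded by Ncoa1, Ncoa2 and Ncoa3, and they can also be held back by corepressors such as the products of Nrip1 and Ncor1. The estrogen-related receptors share much of the DNA-binding domain but are orphan receptors that do not bind E2. In the ovary, ERβ is known as the main estrogen receptor of granulosa cells.

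Levels are given as log2 scaled signal, the processed intensity divided by a factor that sets the 75th percentile of all arrays equal. A change is a difference of group means on that scale, tested with limma and adjusted over the 15637 genes that reached a median scaled signal of 10, with a threshold of 0.05. Per array, 51.4 to 55.6% of probes stood well above background, and replicates of a group correlated at 0.989 to 0.992 across genes. The target of the siRNA did not settle the labels by its own signal. The study checked its siRNA pools by qPCR in such cells and reported strong decreases of the targeted mRNAs, in samples not tied here to these arrays. The gene value of Foxl2 lay between 12.76 and 13.46 on the control siRNA arrays and between 12.96 and 13.41 on the arrays labelled FOXL2 siRNA (change 0.18, SE 0.10, limma adjusted p = 0.334). Of its 2 probes, A_55_P2041668 was lower on the arrays labelled FOXL2 siRNA (change -0.97, SE 0.19, adjusted p = 0.0199) and A_55_P2037732 was not (0.18, adjusted p = 0.364). Among the marker genes listed below, Fst, which FOXL2 is known to activate, ranged from 11.22 to 11.35 on the control siRNA arrays and from 8.91 to 9.57 on the arrays labelled FOXL2 siRNA. Sox9, which FOXL2 is known to repress, ranged from 5.66 to 6.70 and from 7.71 to 8.46 in the same order. Neither gene overlapped between the siRNAs, and both were picked out after their values were seen. The E2 labels were not checked in this way. Under control siRNA Sox9 was 5.66 and 5.87 with vehicle and 6.41 and 6.70 with E2. Under FOXL2 siRNA it was 8.39 and 8.46 with vehicle and 7.71 and 8.27 with E2. The study reported a repression of Sox9 by E2, at a low level. What lies behind the rise under control siRNA was not tested.

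Of the 10 genes, 8 passed the filter on signal and were tested. Nrip1 and Esr2 were lower with FOXL2 siRNA over both treatments, and no other gene of the set passed the threshold in that comparison. The 2 of 8 genes stood against 12.6% called among all genes tested in either direction, and 6.18% called lower. With E2, 0 of the 8 genes passed in any comparison. The arrays behind these counts are shown gene by gene in the plot of the members on each array.

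**Figure D1:**
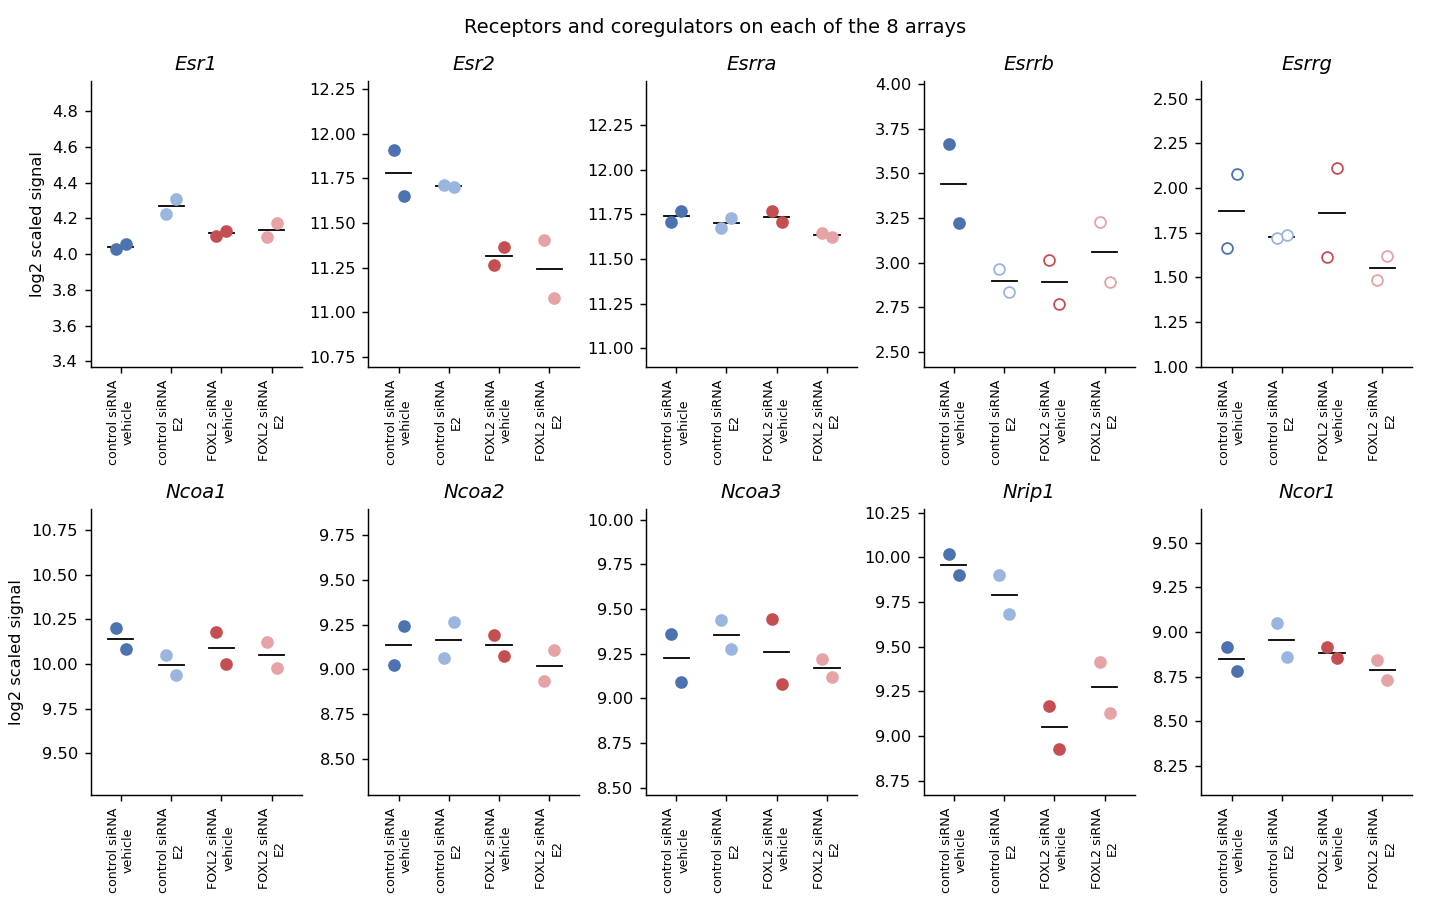
The log2 scaled signal of each gene on the 8 arrays, with 2 points per group and a line at the group mean. Points are open where the gene was not well above background on both arrays of the group, and each panel has its own vertical range. Only Esr2 and Nrip1 have all 4 FOXL2 siRNA arrays below all 4 control siRNA arrays; the open points mark Esrrb in 3 groups and Esrrg in all 4.

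Esr2 (Entrez 13983), which encodes ERβ, was read by 1 probe and was well above background on all 8 arrays. Under vehicle its level was 11.91 and 11.65 for control siRNA and 11.27 and 11.37 for FOXL2 siRNA. Under E2 it was 11.71 and 11.70 for control siRNA and 11.41 and 11.08 for FOXL2 siRNA. The 4 FOXL2 siRNA arrays were all below the 4 control siRNA arrays. Group means for control siRNA were 11.78 ± 0.18 under vehicle and 11.71 ± 0.01 under E2 (SD, n = 2), and for FOXL2 siRNA 11.32 ± 0.07 and 11.24 ± 0.23. Groups that differed only in E2 differed by less than the larger of their SDs.

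Over both treatments Esr2 fell by 0.46 with FOXL2 siRNA, to 72.5% of the control level (SE 0.09, 95% interval -0.68 to -0.25, limma adjusted p = 0.0167). The size was the same with vehicle (-0.46, SE 0.13) and with E2 (-0.46, SE 0.13), and the difference between them was 0.00 within an interval of -0.43 to 0.43. Taken alone, neither treatment passed the threshold, with adjusted p = 0.0898 for vehicle and adjusted p = 0.11 for E2. With the replicate number as a block both passed, at adjusted p = 0.00892 and adjusted p = 0.0105. The call over both treatments was lost without either control siRNA array under E2 (adjusted p = 0.0602 for replicate 1 and 0.0575 for replicate 2) and without FOXL2 siRNA replicate 1 under vehicle (0.0574), while the change stayed between -0.54 and -0.38 in all 8 fits that left out 1 array.

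Esr1 (Entrez 13982), which encodes ERα, was dim and read by 4 probes. The probe A_52_P237077, with 10 spots, and the probe A_55_P2030883 were well above background on all 8 arrays, whereas A_51_P474658 and A_66_P138072 were on none. The gene value, a mean over the 4 probes, was 4.03 and 4.06 for control siRNA and 4.10 and 4.13 for FOXL2 siRNA under vehicle. Under E2 it was 4.23 and 4.31 for control siRNA and 4.10 and 4.17 for FOXL2 siRNA. The siRNA groups overlapped over both treatments, and the control siRNA arrays with E2 were highest.

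Over both treatments Esr1 changed by -0.03 with FOXL2 siRNA (95% interval -0.47 to 0.41, limma adjusted p = 0.946). limma shares the spread among genes of similar brightness, and this interval is wide beside the arrays' own spread. Where Esr2 fell, no change of Esr1 was detectable at this precision. An exact two-sided permutation test asked whether Esr2 moved relative to Esr1 on the same arrays. The signal of Esr2 minus that of Esr1 was lower by 0.43 on the log2 scale with FOXL2 siRNA, a difference of -0.43 over 4 against 4 arrays, with exact p = 0.0286, the smallest such a split allows, and adjusted p = 0.0571 over the 2 such tests made. Beside the E2 result, this design could not have given a lower adjusted value, so it does not settle whether the receptors moved unequally. The Esr1 value includes its 2 probes at background, and with the brightest probe of each gene the difference was -0.34 (adjusted p = 0.229). For E2 against vehicle the same measure differed by -0.20 (exact p = 0.4, adjusted p = 0.4).

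The estrogen-related receptors differed in whether they were measured at all. Esrra (Entrez 26379), an orphan receptor known for its part in energy metabolism, was well above background on all 8 arrays. Under vehicle its level was 11.71 and 11.77 for control siRNA and 11.77 and 11.71 for FOXL2 siRNA. Under E2 it was 11.67 and 11.73 for control siRNA and 11.65 and 11.62 for FOXL2 siRNA. All 8 arrays lay within a narrow band and the siRNA groups overlapped. The change with FOXL2 siRNA over both treatments was -0.03 (95% interval -0.16 to 0.09, limma adjusted p = 0.755), the narrowest interval of the 8 genes tested.

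Esrrb (Entrez 26380), known from embryonic stem cells and the placenta, did not reach the signal filter. It was well above background on both arrays of control siRNA with vehicle, on 1 array of FOXL2 siRNA with E2 and on none of the other 5. Its values were 3.66 and 3.22 for control siRNA under vehicle and lay between 2.77 and 3.23 on the other 6 arrays. No fold is given for the gene value, because it averages 2 probes, of which A_52_P628212 was well above background on 0 arrays. The detection limit sets bounds of 3.55 for control siRNA with E2 and 3.71 for FOXL2 siRNA with vehicle, where neither array detected Esrrb. They cannot be compared with this gene value, detected at 3.66 on control siRNA replicate 1 under vehicle, where the limit was 3.89. The other probe, A_55_P1954302, reached the signal filter. It was 4.10 and 4.02 for control siRNA under vehicle and 3.39 to 3.99 on the other 6 arrays. With FOXL2 siRNA it changed by -0.50 with vehicle (SE 0.36), 0.23 with E2 and -0.13 over both treatments. With E2 it changed by -0.49 under control siRNA and 0.24 under FOXL2 siRNA, and no change passed the threshold. Esrrg (Entrez 26381), an orphan receptor of tissues with high energy use, was well above background on 0 of 8 arrays with both of its probes, so only a bound can be given for it in every group.

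The 3 p160 coactivators had levels that barely moved. Ncoa1 (Entrez 17977), which encodes SRC-1, ranged from 9.94 to 10.20 on the control siRNA arrays and from 9.98 to 10.18 on the FOXL2 siRNA arrays. Ncoa2 (Entrez 17978), which encodes SRC-2, ranged from 9.03 to 9.26 on the control siRNA arrays and from 8.93 to 9.19 on the FOXL2 siRNA arrays. Ncoa3 (Entrez 17979), which encodes SRC-3, ranged from 9.09 to 9.44 and from 9.08 to 9.44 in the same order. The siRNA groups overlapped for each of the 3 coactivators. Their changes with FOXL2 siRNA over both treatments were 0.00 (95% interval -0.18 to 0.18) for Ncoa1, -0.07 (-0.28 to 0.14) for Ncoa2 and -0.07 (-0.33 to 0.18) for Ncoa3, with limma adjusted p of 0.998, 0.679 and 0.722. A change of the size seen for Esr2 lies outside each of these intervals, which are of the gene values. For Ncoa3 the interval of its dimmer probe, A_55_P2071868, was -0.83 to -0.03 and includes such a change.

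Nrip1 (Entrez 268903) encodes RIP140, a corepressor that binds nuclear receptors with their hormone bound and is known for its need in ovulation. Under vehicle its level was 10.02 and 9.90 for control siRNA and 9.17 and 8.93 for FOXL2 siRNA. Under E2 it was 9.90 and 9.68 for control siRNA and 9.42 and 9.13 for FOXL2 siRNA. The 4 FOXL2 siRNA arrays were all below the 4 control siRNA arrays, while the E2 and vehicle arrays overlapped under FOXL2 siRNA. Under control siRNA both E2 arrays were below both vehicle arrays, the nearest of them by less than the rounding shown here. In order of level the groups ran from control siRNA with vehicle (9.96 ± 0.08, SD, n = 2) over control siRNA with E2 (9.79 ± 0.15) and FOXL2 siRNA with E2 (9.27 ± 0.20) to FOXL2 siRNA with vehicle (9.05 ± 0.17). The E2 comparison did not separate the first group from the second, nor the third from the fourth.

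Over both treatments Nrip1 fell by 0.71, to 61.0% of the control level (SE 0.10, 95% interval -0.95 to -0.48, limma adjusted p = 0.00388). This was the call of the set that held in all 8 fits that left out 1 array, with adjusted p of at most 0.0206. With vehicle alone the fall was 0.91 and passed the threshold (-0.91, SE 0.14, adjusted p = 0.0111), as the 1 of 8 genes to do so, against 6.56% of all genes called in either direction and 2.94% called lower. That call was lost when either control siRNA array under vehicle was left out (adjusted p = 0.0546 for replicate 1 and 0.0518 for replicate 2) and without FOXL2 siRNA replicate 2 under vehicle (0.0795). With E2 alone the change was -0.52 (SE 0.14, adjusted p = 0.0996), and 0 of 8 genes were called, against 4.39% of all genes in either direction and 2.14% called lower. In that comparison 2 of the 8 genes, Esr2 and Nrip1, had an unadjusted p under 0.05, as did 16.6% of all genes, and with the replicate number as a block Nrip1 passed at adjusted p = 0.00195. The changes with vehicle and with E2 differed by 0.39 (95% interval -0.07 to 0.86, limma adjusted p = 1), so a difference between them was not detectable.

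Ncor1 (Entrez 20185), which encodes a corepressor that holds histone deacetylase complexes at receptors without hormone, was read by 4 probes. Its level ranged from 8.78 to 9.05 on the control siRNA arrays and from 8.73 to 8.91 on the FOXL2 siRNA arrays. The groups overlapped, and the change over both treatments was -0.07 (95% interval -0.25 to 0.12, limma adjusted p = 0.671).

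**Figure D2:**
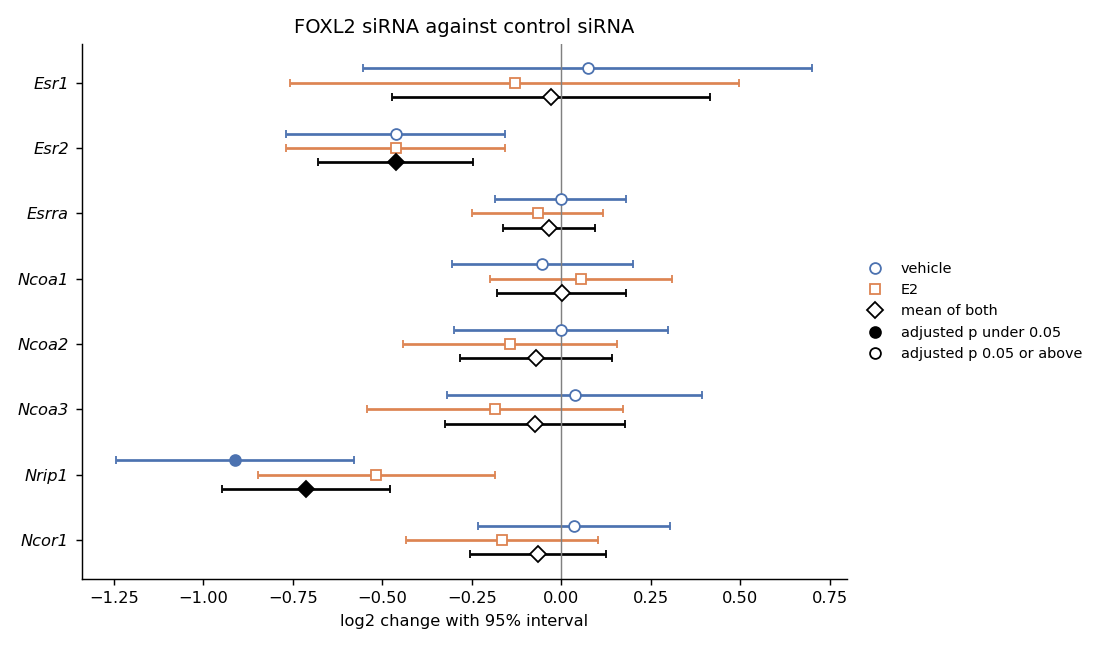
The log2 change with FOXL2 siRNA against control siRNA for the 8 genes tested, with vehicle, with E2 and as the mean of both; bars are 95% intervals from limma and filled symbols passed the adjusted threshold. Esr2 (-0.46) and Nrip1 (-0.71) are filled for the mean, Nrip1 is also filled for vehicle (-0.91), and the means of the other genes lie between -0.07 and 0.00.

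Counted over the arrays themselves, 2 of the 8 genes had all 4 FOXL2 siRNA arrays below all 4 control siRNA arrays, against 10.7% of all genes tested. Within E2 alone, with 2 arrays against 2, it was 6 of the 8 genes (Esr1, Esr2, Esrra, Ncoa3, Nrip1 and Ncor1) against 24.7%, and within vehicle alone 2 of the 8 (Esr2 and Nrip1) against 23.5%. Of the genes counted within 1 treatment, Nrip1 with vehicle passed the adjusted threshold there, and the others did not. The median change of the 8 genes was -0.07, beside 0.00 for all genes, and 7 of the 8 changes were below 0. Of the 22 probes of the 10 genes, 17 reached the signal filter. In the fit on probes 2 of the 17 were called lower over both treatments, the Esr2 probe (adjusted p = 0.0243) and the Nrip1 probe A_51_P152747 (-0.72, adjusted p = 0.00488), against 7.98% of all probes called in either direction and 3.92% called lower.

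The probes of most genes lay close together. The other Nrip1 probe, A_52_P413584, changed by nearly the same amount (-0.68, SE 0.17) with limma adjusted p = 0.0501, and each of the 2 Nrip1 probes had all 4 FOXL2 siRNA arrays below the control siRNA arrays. The 4 Ncor1 probes lay between -0.10 and 0.12, and the 3 Ncoa1 probes between -0.03 and 0.06. The 2 Ncoa3 probes were farther apart. A_55_P2071868 changed by -0.43 (SE 0.17, unadjusted p = 0.0369, limma adjusted p = 0.191) and A_55_P2183750 by -0.05 (SE 0.12, adjusted p = 0.844). Whether these probes differ from each other was not tested.

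**Figure D3:**
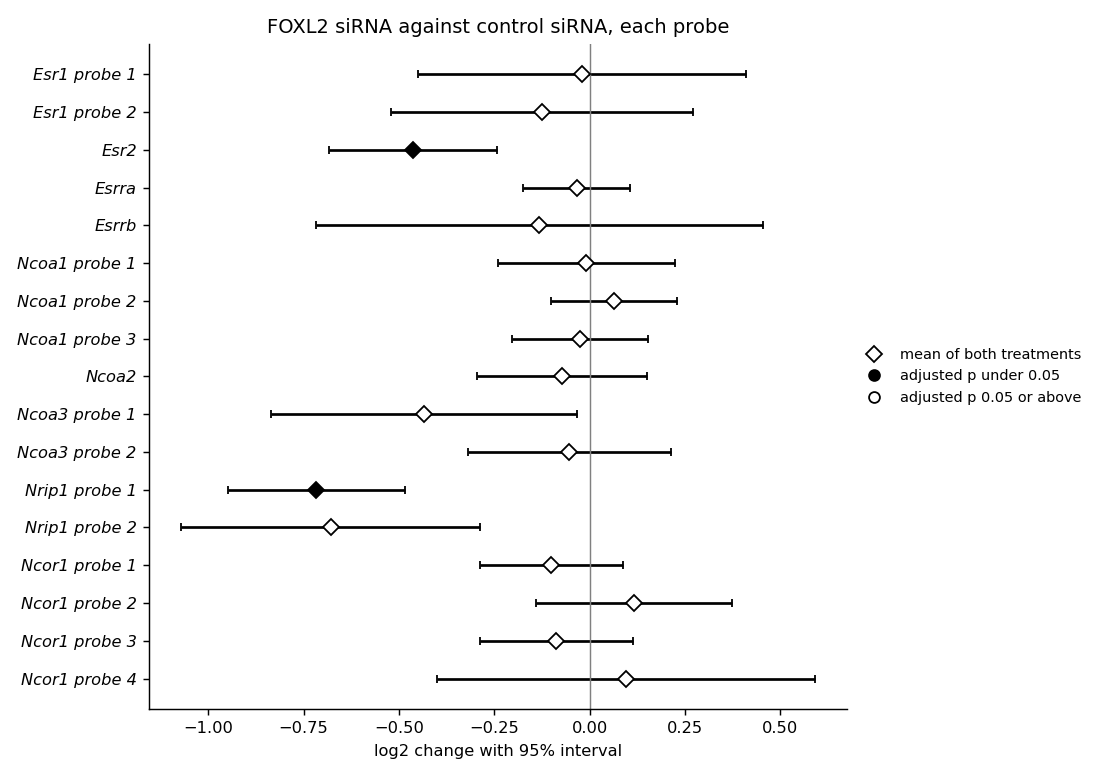
The log2 change with FOXL2 siRNA against control siRNA over both treatments for each of the 17 tested probes of the set, with 95% intervals from limma on probes; filled symbols passed the adjusted threshold. The Esr2 probe (-0.46) and the first Nrip1 probe (-0.72) are filled, and the second Nrip1 probe (-0.68) lies beside them with a wider interval.

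Because Esr2 and Nrip1 fell together, the 250 bases before their annotated starts are shown, from RefSeq on GRCm38.p6. The arrays were designed on mm9, and no position of theirs is used. In the sequences, capitals mark matches on either strand to GGTCA, the core that receptor elements repeat, and to a forkhead word, searched as GTAAACA and also in the forms ATAAACA as well as GTAAATA and likewise ATAAATA. Esr2 has 1 such window, at chr12:76177260-76177509 on the minus strand. Nrip1 has 2, at chr16:76373828-76374077 and chr16:76373050-76373299, on the minus strand too.
Esr2: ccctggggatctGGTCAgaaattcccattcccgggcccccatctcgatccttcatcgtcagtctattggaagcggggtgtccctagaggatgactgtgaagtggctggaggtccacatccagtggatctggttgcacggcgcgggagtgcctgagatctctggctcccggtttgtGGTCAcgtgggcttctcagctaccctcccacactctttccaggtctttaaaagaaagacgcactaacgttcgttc
Nrip1, upstream start: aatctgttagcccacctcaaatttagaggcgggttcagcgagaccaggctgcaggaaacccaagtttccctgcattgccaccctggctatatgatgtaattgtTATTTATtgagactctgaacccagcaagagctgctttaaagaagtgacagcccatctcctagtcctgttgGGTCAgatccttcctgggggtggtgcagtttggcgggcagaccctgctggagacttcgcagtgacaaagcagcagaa
Nrip1, downstream start: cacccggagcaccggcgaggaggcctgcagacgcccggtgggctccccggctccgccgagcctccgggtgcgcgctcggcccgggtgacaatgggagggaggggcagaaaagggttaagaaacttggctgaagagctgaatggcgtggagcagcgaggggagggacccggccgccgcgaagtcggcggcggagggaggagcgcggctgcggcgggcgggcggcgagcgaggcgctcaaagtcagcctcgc
The Esr2 window held 2 matches to GGTCA and 0 forkhead words. The study reported its main FOXL2 binding peaks at Esr2 within introns, which this window does not cover. The window of the upstream Nrip1 start held 1 forkhead word, beginning at position -147 relative to the start, and 1 GGTCA, at position -77. The window of the downstream start held none of either.

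Such matches are common. Of the 32851 promoter windows of the same length, 13.6% held a forkhead word and 35.2% held GGTCA. For 8 of the 10 genes there were 15 windows in all, of which 4 held a forkhead word and 3 held GGTCA. A full estrogen response element, searched as GGTCANNNTGACC, was in 0.0639% of all windows, and the longer word TCAAGGTCA of estrogen-related receptors was in 0.387%. Each of these 2 words contains GGTCA and so overlaps with it. Neither was in any of the 15 windows, which says only that these letters are not in this stretch. A match is a description of the sequence and not of binding.

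E2 for 10 h moved none of the 8 genes past the threshold. With control siRNA 0 of 8 were called, against 0.0192% of all genes, and with FOXL2 siRNA 0 of 8, against 0.0128%. Over both siRNAs it was 0 of 8 against 0%, and for the difference between the E2 effects 0 of 8 against 0.243%. In limma 0 of the 8 genes had an unadjusted p under 0.05 in any of the first 3 comparisons, beside 4.58% of all genes with control siRNA, 3.06% with FOXL2 siRNA and 2.3% over both. In 0 of the 8 genes were all 4 E2 arrays on one side of all 4 vehicle arrays, against 1.37% of all genes in either direction. Among all genes the few calls were 0 higher and 3 lower with control siRNA, and 2 higher and 0 lower with FOXL2 siRNA. For the difference between the E2 effects 37 were higher and 1 was lower. By its own rule the study reported nearly all E2 targets with control siRNA as activated. A mean over both siRNAs can cancel changes of opposite sign, and what lies behind these directions was not tested.

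The E2 changes over both siRNAs ran from -0.09 for Ncoa1 (95% interval -0.27 to 0.09) to 0.12 for Esr1 (-0.32 to 0.57). Esr2 changed by -0.07 (-0.29 to 0.14), Nrip1 by 0.03 (-0.21 to 0.26) and Esrra by -0.07 (-0.20 to 0.06). Apart from that of Esr1, the 7 intervals reached no farther than -0.29 and 0.27. The value for Esr1 rested on the background correction. With control siRNA both E2 arrays were above both vehicle arrays, a change of 0.23, and with the normexp background correction it turned to -0.06; over both siRNAs it turned from 0.12 to -0.09. None of these Esr1 values passed the threshold.

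**Figure D4:**
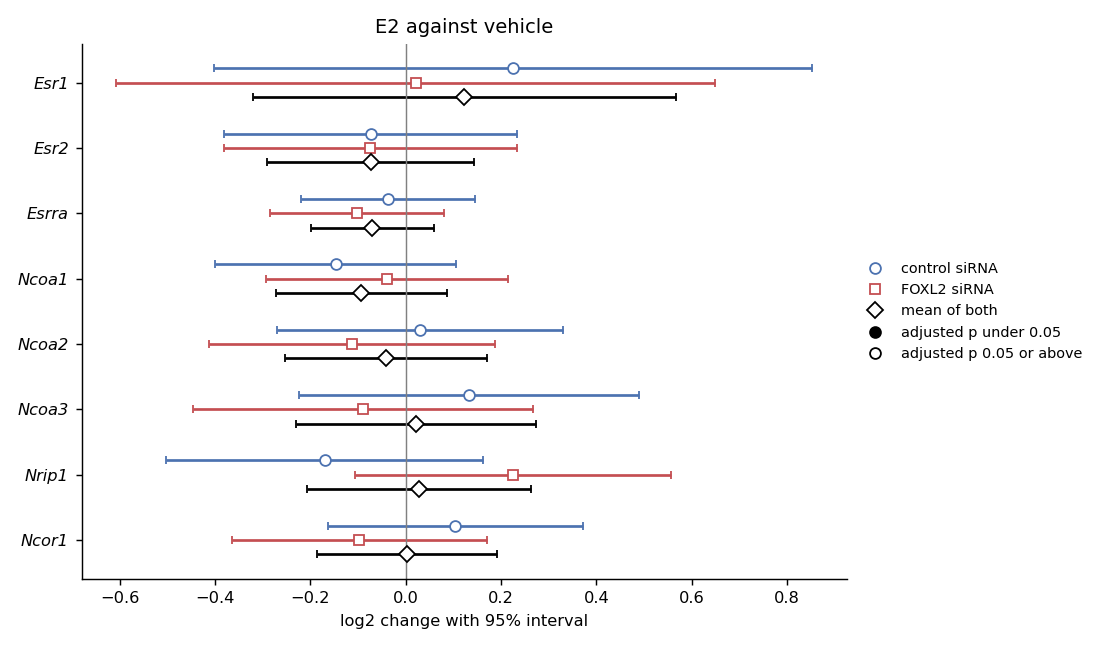
The log2 change with E2 against vehicle for the 8 genes tested, with control siRNA, with FOXL2 siRNA and as the mean of both; bars are 95% intervals from limma. All symbols are open because none passed the adjusted threshold, and the means lie between -0.09 (Ncoa1) and 0.12 (Esr1).

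Nrip1 had E2 changes of opposite sign in the 2 siRNA backgrounds, -0.17 (SE 0.14) with control siRNA and 0.22 (SE 0.14) with FOXL2 siRNA. Both intervals included 0, and the difference of 0.39 did not pass (unadjusted p = 0.0881, limma adjusted p = 1). Esr2 changed by -0.07 with either siRNA. A change of sign was not particular to Nrip1. In the opposite order it was seen in Ncoa3 (0.13 and -0.09) and Ncor1 (0.10 and -0.10). Of the pathway genes named below, Cited1 (0.55 and -0.37), Hdac3 (0.23 and -0.29) and Fkbp5 (0.21 and -0.15) had that order too. None of these changes passed the threshold without the replicate block. Among all genes, 37 were called higher for the difference, the direction seen in Nrip1, and 1 lower.

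Other genes of the same pathway were taken from a list of 54 coactivators, corepressors, chaperones and other receptors, of which 49 were tested. With FOXL2 siRNA over both treatments 4 were higher and 2 were lower, which is 12.2% of the list beside 12.6% of all genes, with a median change of -0.01 beside 0.00. Of all genes 6.4% were called higher in that comparison. With vehicle 5 of the 49 were called, 10.2% beside 6.56% of all genes, and with E2 1 was called, 2.04% beside 4.39%. With E2 against vehicle 0 of the 49 were called in each comparison.

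Among the 24 coactivators tested 2 were lower. Cited1, which encodes a transcriptional cofactor without DNA binding of its own that can act with ERα, was at 9.76 and 9.70 for control siRNA and 8.32 and 8.22 for FOXL2 siRNA under vehicle. Under E2 it was at 10.33 and 10.23 for control siRNA and 8.11 and 7.68 for FOXL2 siRNA. The 4 FOXL2 siRNA arrays were all more than 1 log2 unit below the control siRNA arrays. Cited1 fell by 1.92 over both treatments, to 26.4% of control (SE 0.11, limma adjusted p = 0.000133). Under vehicle its change was -1.46 (adjusted p = 0.00243), under E2 it was -2.38 (adjusted p = 0.00131), and all 3 calls held in each fit that left out 1 array.

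The 2 siRNA effects on Cited1 differed by -0.92 (SE 0.21, limma adjusted p = 0.321), which passed with the replicate number as a block (adjusted p = 0.00833). In the same way its change of 0.55 with E2 under control siRNA had adjusted p = 0.718 and, with the block, 0.0363. Pprc1, which encodes a coactivator related to PGC-1, ranged from 7.21 to 7.62 on the control siRNA arrays and from 6.77 to 7.01 on the FOXL2 siRNA arrays. It fell by 0.53 over both treatments (SE 0.12, adjusted p = 0.0268). Of the 8 fits that left out 1 array, the one without control siRNA replicate 1 under vehicle kept that call, and the other 7 gave adjusted p of 0.0512 to 0.0988. The Pprc1 call was also lost with no filter on signal (limma adjusted p = 0.0599), and with normexp the change was -0.35.

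Among the 13 corepressors tested 2 were higher and 0 lower. Hdac3, the histone deacetylase that works with Ncor1, ranged from 8.82 to 9.12 on the control siRNA arrays and from 9.10 to 9.59 on the FOXL2 siRNA arrays. Its arrays thus overlapped, and it rose by 0.40 over both treatments (SE 0.08, limma adjusted p = 0.0197), by 0.66 with vehicle and 0.14 with E2. The call was lost without FOXL2 siRNA replicate 1 under vehicle (adjusted p = 0.0649) or E2 (0.0625) and without control siRNA replicate 2 under vehicle (0.0544) or E2 (0.0783). With normexp the Hdac3 change was 0.29 and not called (limma adjusted p = 0.059). Rcor1, a subunit of the CoREST complex, ranged from 10.59 to 10.78 on the control siRNA arrays and reached up to 11.09 on the FOXL2 siRNA arrays, without overlap. It rose by 0.34 (SE 0.06, adjusted p = 0.00906), and each fit without 1 array kept the call.

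Of the 9 chaperones that hold steroid receptors, Fkbp5 ranged from 13.43 to 13.67 on the control siRNA arrays and from 13.64 to 13.94 on the FOXL2 siRNA arrays, which overlapped. It was higher by 0.25 (SE 0.06, limma adjusted p = 0.0439), a call that none of the 8 fits without 1 array kept (adjusted p of up to 0.133). It was also lost with normexp, quantile normalization, no filter and no trend, at adjusted p of 0.0542 to 0.0972. Of the 3 other receptors tested, Nr3c1, which encodes the glucocorticoid receptor, ranged from 8.88 to 9.09 on the control siRNA arrays and from 9.39 to 9.47 on the FOXL2 siRNA arrays. It rose by 0.41 (SE 0.08, adjusted p = 0.0123), and 7 of the 8 fits without 1 array kept the call, the exception being that without control siRNA replicate 1 under E2 (adjusted p = 0.0539). With vehicle alone Hdac3 (0.66), Rcor1 (0.43), Fkbp5 (0.43) and Nr3c1 (0.46) also passed, with limma adjusted p of 0.0183, 0.0244, 0.0337 and 0.0499. Leaving out any 1 of the 4 vehicle arrays ended each of these calls for the first 3 genes, either control siRNA array under E2 did so for Rcor1 and Fkbp5, and any 1 of all 8 arrays did so for Nr3c1. Fitting only the groups compared ended all 4 of these vehicle calls, at limma adjusted p of 0.0557 to 0.145, and with normexp Nr3c1 changed by 0.30 (adjusted p = 0.167). With E2 alone Hdac3, Rcor1, Fkbp5 and Nr3c1 changed by 0.14, 0.25, 0.07 and 0.37, with limma adjusted p of 0.647, 0.166, 0.786 and 0.125. The siRNA changes under the 2 treatments differed by -0.52 for Hdac3 (SE 0.17, adjusted p = 0.724). For Fkbp5 they differed by -0.36 (SE 0.13, adjusted p = 0.853), and neither difference passed. With the block Nr3c1 and Pprc1 also passed with E2 alone (adjusted p = 0.0295 and 0.0435), and Pprc1 with vehicle alone (0.0219).

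**Figure D5:**
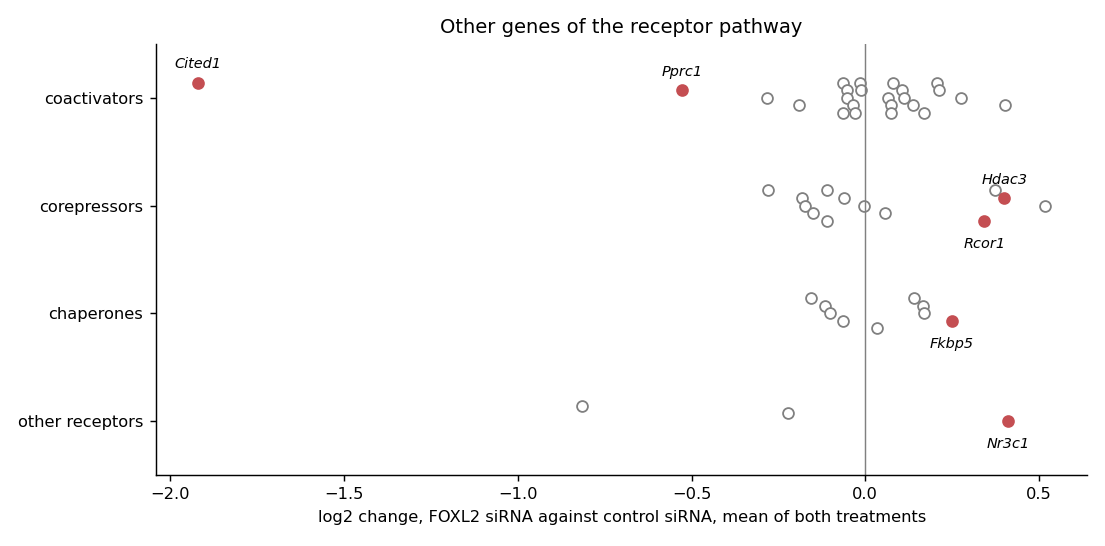
The log2 change with FOXL2 siRNA against control siRNA over both treatments for the 49 tested genes of the pathway list, by class; filled points with names passed the limma adjusted threshold. Cited1 (-1.92) and Pprc1 (-0.53) lie to the left, and Hdac3 (0.40), Rcor1 (0.34), Fkbp5 (0.25) and Nr3c1 (0.41) to the right.

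Over the 8 arrays the genes whose pattern was most like that of Esr2, among 12626 named genes well above background on every array, were Slc5a4a (Pearson r = 0.98), Pitpnc1 (0.98), Spsb1 (0.97), Lzts1 (0.97) and Rpl6 (0.97). For Nrip1 they were Id3 (0.99), Gja1 (0.99), Slco3a1 (0.99), Fos (0.99) and Tbc1d20 (0.99), a look that was added after its values had been seen. These correlations describe 8 arrays that share a slide, a scaling and the same 4 groups.

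Markers of cell types moved with the siRNA as well, beside the falls of Esr2 and Nrip1. Of 10 granulosa markers 7 were well above background on all 8 arrays, while Fshr and Amh were on none. The summed log2 signal of the 5 theca and interstitial markers on the array was 14.35 to 14.54 on the control siRNA arrays and 15.24 to 15.33 on the FOXL2 siRNA arrays, with Lhcgr at background. For the 4 Sertoli markers it was 11.20 to 11.67 and 12.13 to 12.64, and for the 5 surface epithelium markers 7.54 to 8.38 and 8.93 to 9.53, with Lgr5 and Cdh1 at background. The granulosa sum was 16.81 to 16.95 and 16.90 to 17.20. Such a sum follows its brightest members, and single markers, named after their values were seen, went the other way. Besides Fst, Gja1 was 9.38 to 10.29 and 7.47 to 9.03 in the same order, and Cyp19a1 4.45 to 4.84 and 3.61 to 4.37. The other granulosa markers above background, Foxl2, Amhr2, Inha, Inhba and Nr5a2, overlapped between the siRNAs. Cyp19a1 was well above background on 6 of the 8 arrays, and its lowest values lay near background. Of the Sertoli markers, Dmrt1 was lower on the FOXL2 siRNA arrays (6.52 to 7.25 and 6.14 to 6.39), while Sox9, Sox8 and Dhh were higher without overlap. Of the theca and interstitial markers, Cyp11a1 was higher without overlap (14.02 to 14.29 and 14.97 to 15.12), while Cyp17a1, Star and Ptch1 overlapped between the siRNAs. The surface epithelium sum likewise followed Upk3b (7.16 to 8.07 and 8.73 to 9.36), while Krt7 and Krt19 overlapped. Of the 8 oocyte markers 7 were at background on all arrays, and the macrophage, endothelial and stromal sums overlapped between the siRNAs. The stromal sum followed its brightest member, Dcn, which overlapped, as did Lum. Within it Col1a1 was higher without overlap on the FOXL2 siRNA arrays (8.39 to 9.39 and 9.50 to 10.46). The part of these markers and cell types in the changes of Esr2 and Nrip1 was not tested.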

How the data were processed

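RNA from 8 samples, 50 ng each, was labelled with Cy3 and hybridised to one-colour Agilent arrays on 1 slide. The deposited scanner files hold spot intensity after the authors' Feature Extraction software subtracted background and spatial trends, with no scaling between arrays. The authors' value table is on a log2 scale, relative to each array's 75th percentile, with 1 row per Entrez gene ID. Groups and replicate numbers came from the sample titles.

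Here 3671 control spots of 62976 and 42 non-uniform probes were left out, which left 55639 probes. Intensity was scaled to each array's 75th percentile (275.1 to 367.5 units), spots of a probe and probes of a gene ID were averaged on the linear scale, and the 15637 of 24232 genes whose median scaled signal reached 10 were tested. No probe was saturated. RefSeq named 22352 of 24235 IDs. Array signal has no read depth, and the 2 arrays per group limit precision.

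limma version 3.58.1 in R version 4.3.3 fitted 4 group means with an intensity trend, two-sided, with Benjamini-Hochberg adjustment over all genes. It was tested on simulated data. Plots used Python 3.11.15 and matplotlib 3.10.9. The duplicates came from different animals grown independently, so p-values measure the spread between 2 cultures per group. Samples with the same replicate number deviated together (r of 0.33 to 0.44 in all 6 pairs of groups), so the number may mark pairing. The main fits did not model it, and it entered only as the replicate block of an alternative fit. The number also goes with the place on the slide, and the labels do not say what it marks. The study's methods give no block for these arrays (its paired analysis was of another array experiment, not analysed here), and the values reported have none unless said.

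Alternatives were normexp (offset 50, on median spot signal, since the mean was not among the columns used here), quantile normalization, other filters, no trend, the brightest probe, the authors' table, median centring, the replicate block, only the groups compared, leaving out each array, and the rule the study used for E2 targets, applied here to the siRNA comparisons too. By that rule a gene counts when its 2 group means lie at least 1 log2 unit apart and farther apart than 2 times their summed SDs. Genes named are the 10 members, Foxl2, every listed pathway gene that passed, and the 5 genes most correlated with Esr2, plus markers at background. The 5 genes most like Nrip1 and all other markers named were added after their values were seen. The members and lists were chosen with earlier results of these data known.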

Additional observations from a re-analysis of the deposited data

How the results depend on the processing

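With FOXL2 siRNA the number of the 10 genes called over both treatments was 2 under every alternative, and 1 to 2 when 1 array was left out. With vehicle it was 1, 2 with the replicate block, 0 by the study's rule for E2 targets and 0 to 1 without 1 array. With E2 it was 0, and 2 with the block. The count of probes called was 2, and 1 to 2 without 1 array. Esr2 minus Esr1 kept its sign (-0.53 to -0.34) with adjusted p of 0.0571 to 0.229 by exact permutation. Beside the E2 result, these small designs had no room to pass, so this says nothing of stability. In the 4 E2 comparisons 0 genes of the set were called under all alternatives run. The block changed no call of a member besides those given. Over all genes the block raised the calls with vehicle, with E2 and over both from 1026, 686 and 1967 to 2928, 2329 and 4326. No trend gave 633 and 379 with vehicle and with E2, only the groups compared 585 with vehicle, and the study's rule 460 and 368. Leaving out 1 array gave 309 to 918, 130 to 629 and 1181 to 1879. For the difference of the E2 effects, 38 calls became 332 with the block, 9 with no filter, 15 with no trend and 4 to 10 without 1 array. With E2 under control siRNA 3 calls became 182 with the block and 71 by the study's rule, under FOXL2 siRNA 2 became 96 and 34, and over both 0 became 8 with the block; in the remaining fits these 3 counts lay between 0 and 7. Of 1845 values of named genes under alternatives, 81 that were not called in either fit changed sign, all at most 0.23 in size, and 0 of the 262 whose main value was called did. Normexp and the authors' table were tested on the same 15637 genes. The study's rule and the fit of only the groups compared were not run for the means and the difference, which need all 4 groups. The arrays' own signal limits Esrrb and Esrrg, and the 2 arrays per group limit all changes. The cause of these shifts was not tested.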
